A study of Homo sapiens with 8 samples.

Results

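The integrated stress response genes described here are 10 genes chosen by symbol: ATF4, DDIT3, TRIB3, CHAC1, SESN2, ASNS, DDIT4, PPP1R15A, CEBPB and EIF2AK3. All 10 were found among the 58870 gene rows of the deposited table, and all 10 had enough counts to be tested. RNA had been sequenced from 8 libraries of Panc 10.05, a cell line established from a human pancreatic ductal adenocarcinoma. The 4 control libraries came from Panc 10.05 control cells, and the other 4 came from Panc 10.05 cells carrying an ELAPOR1 transgene (ELAPOR1 overexpression). The series asks whether ELAPOR1 shapes tumour subtype and metabolism. The vector of the control cells, the promoter of the transgene, the number of clones and whether the replicates were separate cultures are not given in the sources used here, so p-values measure the spread between these libraries, which may be technical.

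In the integrated stress response, kinases that sense different stresses phosphorylate the translation factor eIF2. Most translation then slows, while the mRNA of the transcription factor ATF4 is translated more. ATF4, with C/EBP-family partners, binds composite DNA elements (C/EBP-ATF response elements, CARE) and switches on genes of amino acid supply, tRNA charging, redox balance, growth control and, with its target DDIT3 (CHOP), cell death. Because ATF4 is set largely by translation, its mRNA level is not a measure of ATF4 protein.

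CHAC1 and ASNS hold the core letters of a CARE, TGATGNAA on either strand, in the 250 bases before a RefSeq transcription start (GRCh38.p14). PPP1R15A holds a full cAMP response element, TGACGTCA, in its window. The 30 bases around each are shown on the strand of the gene, with the matched letters in capitals.
CHAC1: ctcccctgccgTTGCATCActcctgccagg
ASNS: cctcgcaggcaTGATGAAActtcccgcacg
PPP1R15A: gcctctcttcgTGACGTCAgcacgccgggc
The stretch of CHAC1 lies at chr15:40953251-40953280 on the plus strand, and its match, on the opposite strand, covers bases 209 to 202 before the start. That of ASNS lies at chr7:97872458-97872487 on the minus strand of the chromosome, with the match on the strand of the gene, 68 to 61 bases before the start. That of PPP1R15A lies at chr19:48872352-48872381 on the plus strand, with its match 58 to 51 bases before the start. Other transcripts annotated in GENCODE 29 begin upstream of the CHAC1 and ASNS stretches, which are exonic in those transcripts. Of 35116 promoter windows of the same length, 3.14% held the CARE core and 1.65% the cAMP response element. The full ER stress element (ERSE) was in 0.074% of all windows and in none of the 16 windows of the 10 members. A match is a description of letters, and elements outside these windows, or spelled otherwise, were not looked for.

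The labels were checked with ELAPOR1 itself, which is listed under its older symbol KIAA1324. It held 1 to 4 counts in the control libraries and 5910 to 7368 in the ELAPOR1 libraries. Libraries held 13765509 to 18128757 counts, and no library of a group differed from another by as little as sampling noise. The chi-square per degree of freedom was 2.14 to 6.12 between control libraries, highest for replicates 1 and 4. Between ELAPOR1 libraries it was 1.94 to 2.22. All 6 ductal and epithelial markers were detected (KRT8, KRT18, KRT19, KRT7, EPCAM and CDH1), with a summed level of 11900 to 13200 CPM in control and 11200 to 11500 in ELAPOR1 libraries. KRT8 and KRT18, the most abundant of them, were called lower (log2 fold changes -0.16 and -0.36), KRT7, KRT19 and CDH1 higher (0.31, 0.25 and 0.11), and EPCAM was not called. CPM stands for counts per 1e6 counts of a library after TMM scaling. Of 12 markers of leukocytes, fibroblasts, endothelium, acinar and endocrine cells, 6 had no count in any library (CD3E, DCN, LUM, PRSS1, CPA1 and INS), where 3 counts in the smallest library correspond to 0.216 CPM. The 12 summed to 87.7 to 93.2 CPM in control and 76.2 to 82.4 CPM in ELAPOR1 libraries. Most of this was CD68, a lysosomal protein gene (84.4 and 75.7 CPM). The part of these differences in the results was not tested.

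Of the 10 members, 8 fell in ELAPOR1 libraries (edgeR adjusted p-value under 0.05), none rose, and SESN2 and EIF2AK3 were not called. Among all 13860 genes tested, 44.7% were called, 22.1% lower and 22.6% higher. The median log2 fold change of the members was -0.54, beside 0.000875 over all genes tested. The CPM ranges of the 2 groups were apart for the same 8 members, and for 39.2% of all genes tested, 19.3% with ELAPOR1 lower. In 7 members the fall was at least 0.5 on the log2 scale, a size of fall that 5.32% of all genes reached with a call. ATF4, DDIT3 and CEBPB lay just past that cut and did not always keep to it with a library left out. ATF4 came to -0.482 without control replicate 4 and DDIT3 to -0.479 without ELAPOR1 replicate 3. CEBPB came to -0.485 without ELAPOR1 replicate 1. Leaving out each library in turn kept the count of members called lower at 8 every time. When the test asked for more than a 1.5-fold change, 1 member, ASNS, was called lower, as were 0.657% of all genes. In bulk RNA, fewer cells that express a gene and less of its RNA per cell cannot be told apart.

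**Figure D1:**
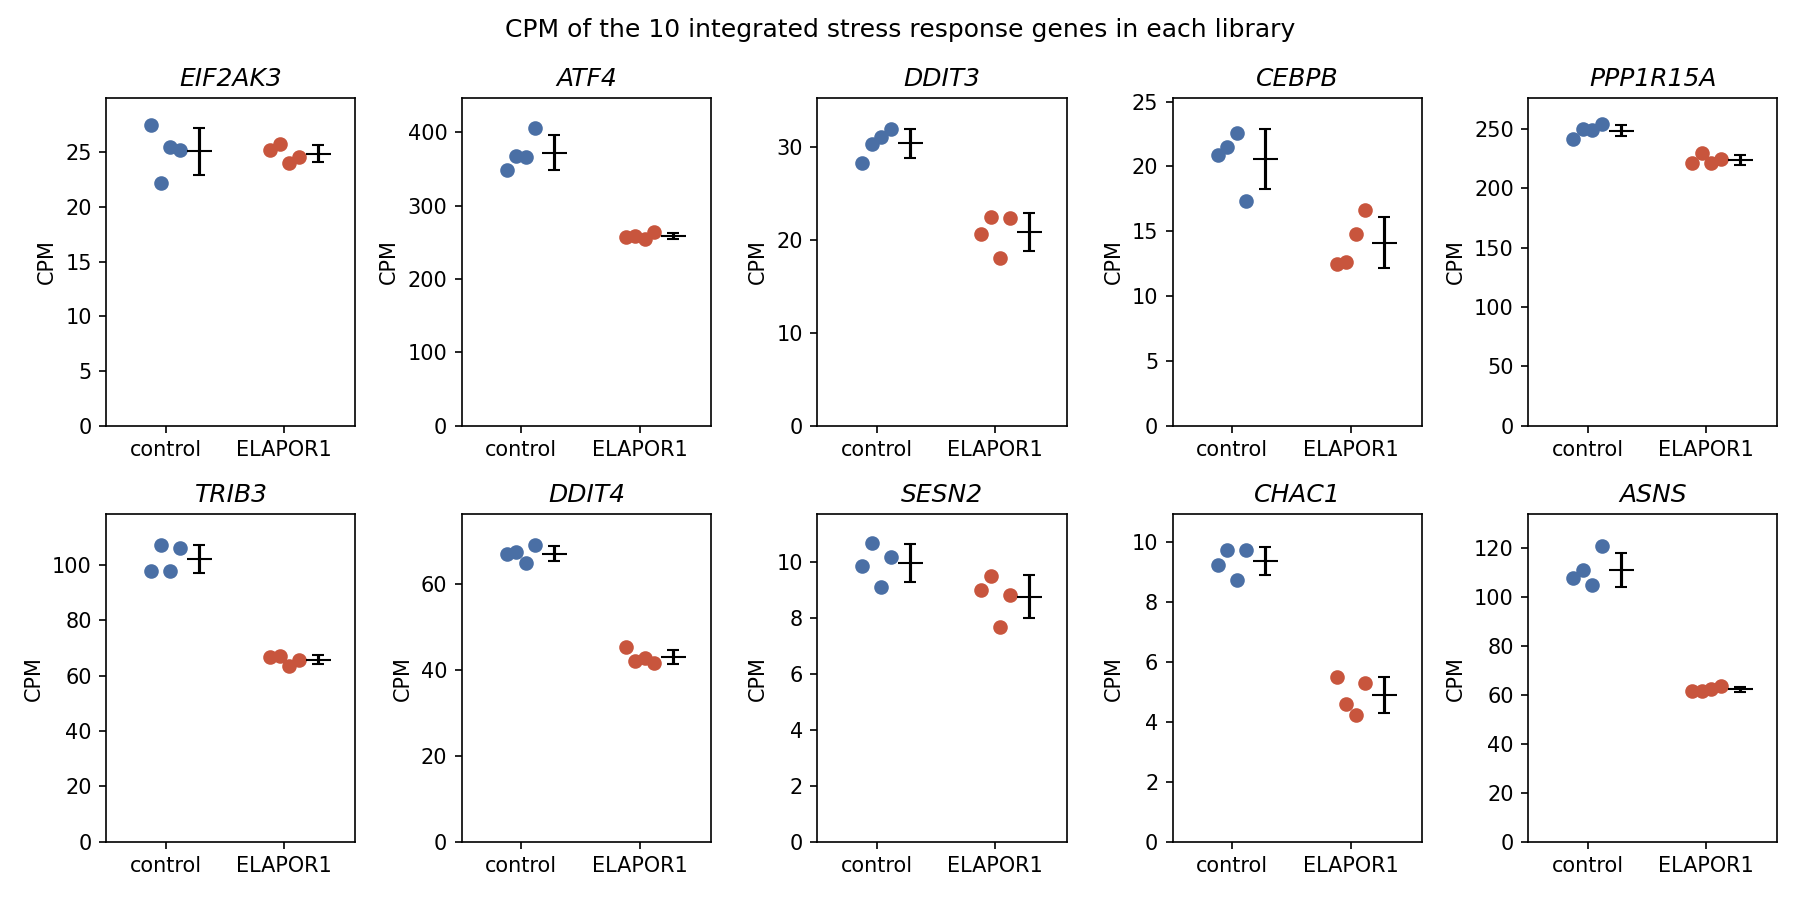
CPM (linear axes starting at 0) of each member in the 4 control (blue) and 4 ELAPOR1 (red) libraries, with the mean and SD beside the points. The ELAPOR1 libraries lie below every control library for 8 genes, while the groups overlap for EIF2AK3 and SESN2.

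EIF2AK3 encodes PERK, the kinase of the endoplasmic reticulum membrane that phosphorylates eIF2 when unfolded proteins build up (ENSG00000172071.12, chromosome 2, 88556741 to 88627576, minus strand, GENCODE 29 on GRCh38 as for all coordinates of genes). Its control libraries had 27.5, 22.2, 25.5 and 25.2 CPM and its ELAPOR1 libraries 25.2, 25.8, 24.0 and 24.6 CPM. The ELAPOR1 values all lie within the control range. The log2 fold change was -0.0122 with an SE of 0.0696 (edgeR adjusted p = 0.904), with a 95% interval from -0.15 to 0.13. An interval of that width leaves room for a small change in either direction, and the sign turned positive with total count scaling (0.00888) and without ELAPOR1 replicate 3 (0.00447) or control replicate 1 (0.0305).

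ATF4, the factor at the centre of the response (ENSG00000128272.14, chromosome 22, 39519695 to 39522685, plus strand), was at 349, 368, 366 and 406 CPM in the control libraries. The ELAPOR1 libraries had 257, 259, 255 and 264 CPM. Every ELAPOR1 library was below every control library, and the ELAPOR1 libraries lay close together (259 ± 3.86 CPM, against 372 ± 23.8 CPM in control, SD, n = 4 each). ATF4 mRNA thus fell to 69.5% of its control level, a log2 fold change of -0.53 with an SE of 0.0349 (edgeR adjusted p = 1.1e-13). A total of 862 of the 13860 tested genes had a lower log2 fold change. Processed copies of ATF4 and ASNS in the genome (8 pseudogene rows) took at most 2.01 counts in any library.

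DDIT3 encodes CHOP, a C/EBP-family factor induced by ATF4 and tied to cell death under lasting stress (ENSG00000175197.12, chromosome 12, 57516588 to 57521737, minus strand). It had 28.2, 30.3, 31.0 and 31.9 CPM in control and 20.6, 22.4, 18.0 and 22.3 CPM in ELAPOR1 libraries. The groups did not overlap, and ELAPOR1 replicate 3 was the lowest library. The log2 fold change was -0.54 with an SE of 0.0712 (edgeR adjusted p = 1.3e-07). DDIT3 overlaps MARS and MBD6 on the opposite strand, and AC022506.1 and MIR616 on its own. Strand-specific counting is not stated, so reads where these genes overlap could have gone to another of them. MARS (MARS1) was far more abundant, at a mean of 279 CPM in control and 228 CPM in ELAPOR1 libraries. It fell by less, with a log2 fold change of -0.29 (edgeR adjusted p = 1.7e-09). The part of such reads in the fall of DDIT3 was not tested.

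CEBPB encodes C/EBPβ, a partner with which ATF4 binds CARE sites (ENSG00000172216.5, chromosome 20, 50190734 to 50192689, plus strand). Its control values were the most scattered among the called members relative to their mean, with 20.9, 21.5, 22.6 and 17.3 CPM in control and 12.5, 12.6, 14.8 and 16.6 CPM in ELAPOR1 libraries. Control replicate 4 was the lowest control and ELAPOR1 replicate 4 the highest of its group, and the groups came close without overlap. The log2 fold change was -0.54 with an SE of 0.0937 (edgeR adjusted p = 2.0e-05), and it ranged from -0.63 to -0.49 as each library was left out. CEBPB-AS1, an antisense transcript, overlaps the gene.

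The feedback genes of the response differed in size of change. PPP1R15A encodes GADD34, the subunit that directs protein phosphatase 1 to eIF2 and so ends the response (ENSG00000087074.8, chromosome 19, 48872392 to 48876057, plus strand). It had 242, 250, 249 and 254 CPM in control and 221, 230, 221 and 225 CPM in ELAPOR1 libraries, groups that do not overlap but lie close together. Its fall was the smallest among the called members, to 90.1% of the control level (log2 fold change -0.15, SE 0.0305, edgeR adjusted p = 1.2e-04).

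TRIB3 encodes a pseudokinase that is induced by ATF4 and CHOP and restrains them (ENSG00000101255.11, chromosome 20, 362835 to 397559, plus strand). Control libraries had 97.6, 107, 97.6 and 106 CPM and ELAPOR1 libraries 66.8, 67.1, 63.5 and 65.5 CPM. The gap between the groups was wider than the range within either. TRIB3 fell to 64.6% of its control level (log2 fold change -0.63, SE 0.0427, edgeR adjusted p = 3.6e-14).

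DDIT4 and SESN2 encode inhibitors of the growth kinase complex mTORC1, which link the response to growth control. DDIT4, also known as REDD1 (ENSG00000168209.5, chromosome 10, 72273920 to 72276036, plus strand), had 67.0, 67.6, 64.9 and 69.3 CPM in control and 45.5, 42.2, 42.8 and 41.7 CPM in ELAPOR1 libraries. All ELAPOR1 values were well below the controls, with a log2 fold change of -0.64 with an SE of 0.0477 (edgeR adjusted p = 3.6e-13). DDIT4-AS1 overlaps it on the opposite strand.

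SESN2, sestrin 2, also binds leucine as a sensor (ENSG00000130766.5, chromosome 1, 28259527 to 28282491, plus strand). It had 9.87, 10.7, 9.11 and 10.2 CPM in control and 9.02, 9.51, 7.70 and 8.83 CPM in ELAPOR1 libraries. ELAPOR1 replicate 2 was above control replicate 3, so the groups overlap. The log2 fold change of -0.18 with an SE of 0.103 (edgeR adjusted p = 0.157) has a 95% interval from -0.39 to 0.03. Its libraries held 107 to 181 counts.

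The largest falls were those of the metabolic members. CHAC1 encodes a γ-glutamylcyclotransferase that degrades glutathione (ENSG00000128965.13, chromosome 15, 40952962 to 40956519, plus strand). Control libraries had 9.26, 9.74, 8.75 and 9.75 CPM and ELAPOR1 libraries 5.52, 4.59, 4.25 and 5.31 CPM, from only 59 to 167 counts per library. Even the highest ELAPOR1 library was well below the lowest control. CHAC1 fell to 52.7% of its control level (log2 fold change -0.92, SE 0.122, edgeR adjusted p = 1.2e-07), and 202 of all tested genes had a lower log2 fold change.

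ASNS encodes asparagine synthetase, which makes asparagine from aspartate and glutamine and is a classical ATF4 target of amino acid shortage (ENSG00000070669.17, chromosome 7, 97852118 to 97872542, minus strand). It had 108, 111, 105 and 121 CPM in control and 61.5, 61.7, 62.4 and 63.8 CPM in ELAPOR1 libraries, a narrow range in the latter. Its log2 fold change was -0.84 with an SE of 0.0436 (edgeR adjusted p = 4.3e-17), a fall to 56.0% of the control level, and 272 tested genes had a lower value. ASNS overlaps AC005326.1 on the opposite strand and AC079781.5 on its own strand, so reads there could have gone to either gene. ASNS has the CARE core shown above 68 to 61 bases before a start, and its other window has none. CHAC1 has its CARE core farther off, at 209 to 202 bases, and the other 6 called members have no CARE core in their windows. Whether a CARE core goes with the size of a fall was not tested.

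**Figure D2:**
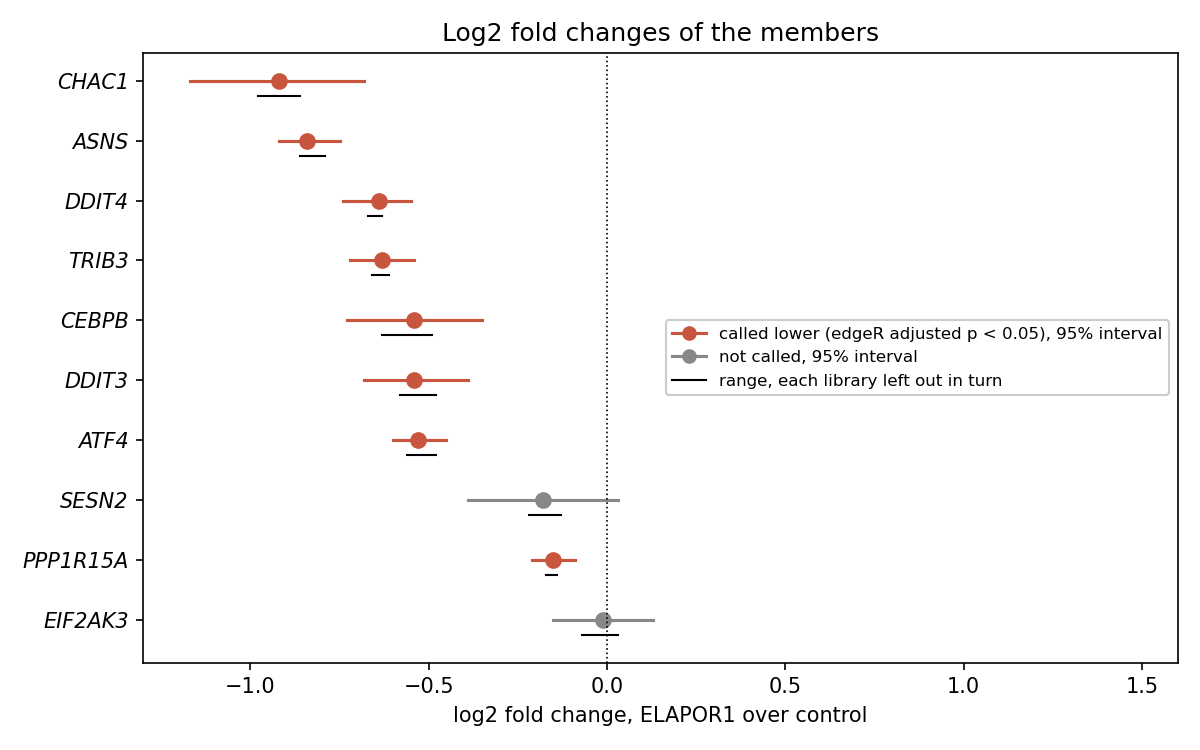
Log2 fold changes of the members (points), their 95% intervals (coloured lines) and the range when each library is left out (thin black lines). The 8 called genes lie between -0.92 and -0.15, and the intervals of SESN2 and EIF2AK3 include 0.

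Set per length, as CPM per kilobase of merged exons, ATF4 was the most abundant member in both groups (148 ± 9.45 in control libraries and 103 ± 1.53 with ELAPOR1, mean ± SD, n = 4 each). PPP1R15A was next (80.4 ± 1.54 and 72.4 ± 1.41), followed by DDIT4 (32.6 ± 0.873 and 20.9 ± 0.821) and TRIB3 (29.7 ± 1.44 and 19.1 ± 0.480). The ranges of these 4 did not overlap within a group. ASNS (25.0 ± 1.5 in control) and DDIT3 (23.2 ± 1.23) overlapped in their ranges in control, and again in ELAPOR1 libraries (14.0 ± 0.231 and 15.9 ± 1.56). CEBPB followed (10.5 ± 1.19 and 7.22 ± 1.0). At the low end, EIF2AK3 (4.62 ± 0.403) and CHAC1 (4.56 ± 0.231) overlapped in control. In ELAPOR1 libraries EIF2AK3 was at 4.58 ± 0.145 and CHAC1 at 2.39 ± 0.291, so that CHAC1 there overlapped with SESN2 (2.54 ± 0.222) instead. The reads of the table were not assigned with these exon lengths, so the order of close neighbours depends on the annotation.

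Members were then compared with a relative (a paralog, or another gene of the same kind) inside each library, as the log2 ratio of CPM with 1 CPM added to each. Of 13 listed pairs, 12 had both genes tested, since DDIT4L, the relative of DDIT4, had no count in any library. The ratios of the groups did not overlap for 6 of them. Each of these 6 had the smallest p that 4 against 4 libraries can give (exact permutation p = 0.0286, two-sided), which becomes 0.0571 after Benjamini-Hochberg adjustment over the 12 pairs. No pair therefore passed 0.05.

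CHAC2 encodes the relative of CHAC1 that also degrades glutathione, and it went the other way, from 9.74 ± 0.484 to 16.8 ± 0.997 CPM (SD, n = 4 each, log2 fold change 0.78, edgeR adjusted p = 5.2e-09). CHAC2 overlaps ASB3 on the opposite strand. The log2 ratio of CHAC1 to CHAC2 was -0.0506 ± 0.127 in control and -1.59 ± 0.175 in ELAPOR1 libraries, a change of -1.54 (SE 0.108). The 2 genes were thus at like CPM in control libraries and far apart in ELAPOR1 libraries.

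ATF5, a factor of the ATF4 subfamily that is also translated more under stress, rose from 42.8 ± 2.09 to 80.5 ± 1.76 CPM (SD, n = 4 each, log2 fold change 0.91, SE 0.0466, edgeR adjusted p = 2.3e-17). It overlaps NUP62 and IL4I1 on the opposite strand. The log2 ratio of ATF4 to ATF5 went from 3.09 ± 0.0336 to 1.67 ± 0.0115, a change of -1.42 (SE 0.0178) with the narrowest spread of the 12 pairs.

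Neither TRIB1 (log2 fold change -0.0360, edgeR adjusted p = 0.769) nor TRIB2 (0.33, adjusted p = 0.162), the other tribbles pseudokinases, was called. The ratio of TRIB3 changed by -0.59 (SE 0.103) against TRIB1 and by -0.87 (SE 0.134) against TRIB2. CEBPG, which encodes another C/EBP partner of ATF4, was at 67.5 ± 1.79 and 67.2 ± 3.65 CPM (log2 fold change -0.00615, edgeR adjusted p = 0.927), and the ratio of CEBPB to it changed by -0.51 (SE 0.152). CEBPD fell (-0.26, edgeR adjusted p = 0.0102), a call lost without ELAPOR1 replicate 2 (adjusted p = 0.0550). The ratio of CEBPB to CEBPD changed by -0.27 (SE 0.121), with overlapping groups (exact permutation p = 0.0857, adjusted 0.129).

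PPP1R15B, the constitutive counterpart of PPP1R15A, fell by about as much (log2 fold change -0.12, SE 0.0380, edgeR adjusted p = 0.00946), a call lost without ELAPOR1 replicate 2 (adjusted p = 0.0708). Their ratio changed by -0.0302 (SE 0.0612, exact permutation p = 0.657). SESN1 (0.0586, edgeR adjusted p = 0.836) and SESN3 (0.0603, adjusted p = 0.757) were not called, and the ratio of SESN2 changed by -0.23 (SE 0.165) and -0.21 (SE 0.155) against them, within overlapping groups.

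The 3 other eIF2 kinases were EIF2AK1 (HRI, which senses heme and mitochondrial stress), EIF2AK2 (PKR, which senses double-stranded RNA) and EIF2AK4 (GCN2, which senses uncharged tRNA). EIF2AK2 rose from 158 ± 10.2 to 198 ± 9.16 CPM (SD, n = 4 each, log2 fold change 0.33, edgeR adjusted p = 1.6e-07) and EIF2AK1 from 212 ± 5.10 to 239 ± 4.20 CPM (0.18, adjusted p = 1.3e-05). EIF2AK4 was not called (0.0820, edgeR adjusted p = 0.0675), and was called with total count scaling (adjusted p = 0.0212) and without control replicate 1 (0.0271) or 2 (0.0392). The ratio of EIF2AK3 changed by -0.33 (SE 0.0742) against EIF2AK2, by -0.19 (SE 0.0548) against EIF2AK1 and by -0.0908 (SE 0.0793) against EIF2AK4, and the groups were apart only against EIF2AK2.

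**Figure D3:**
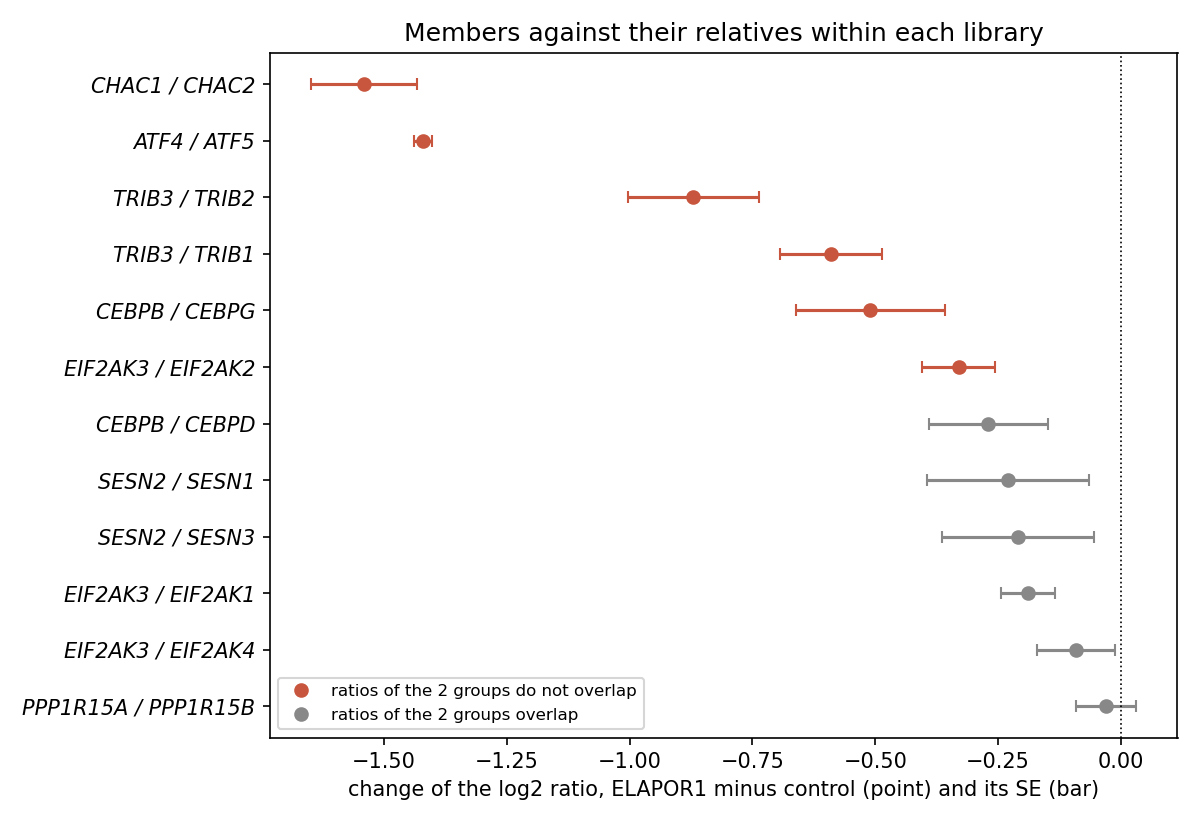
Change of the log2 ratio of each member to a relative, ELAPOR1 minus control (points) with its standard error (bars). The changes run from -1.54 for CHAC1 against CHAC2 to -0.0302 for PPP1R15A against PPP1R15B, and the ratios of the 2 groups are apart in the 6 red pairs.

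The rest of the pathway was followed in 6 lists taken from textbook knowledge, with earlier results of these data known. Of the 18 sensors and genes of eIF2 machinery tested, 5 fell (27.8%) and 8 rose (44.4%), beside 22.1% and 22.6% of all genes tested, with a median log2 fold change of 0.102. The share that fell was near that of all genes, and the share that rose was above it. The rise of EIF2B1 (0.13, edgeR adjusted p = 0.0216) was called in only 4 of the 8 fits with a library left out. Lower were DELE1, which carries mitochondrial stress to HRI (-0.37, edgeR adjusted p = 1.5e-08), the adaptor NCK1 (-0.29) and EIF2S3, the γ subunit of eIF2 (-0.28). EIF2AK2, DNAJC3, an inhibitor of eIF2 kinases (0.25, edgeR adjusted p = 1.3e-04), and EIF2S1, the α subunit that is phosphorylated (0.19, adjusted p = 3.3e-06), had the largest rises of the list.

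Among factors related to ATF4 and TRIB3, 7 of 9 were tested, with 2 lower and 2 higher, which is 28.6% each way and near the 22.1% and 22.6% of all genes tested (median -0.00615, the value of CEBPG, between -0.0262 and 0.0277 as each library was left out, and 0.154 when every library had to hold 10 counts of a gene). Besides ATF5, ATF3, a stress-induced factor downstream of ATF4, rose from 46.8 ± 1.48 to 58.3 ± 3.19 CPM (SD, n = 4 each, log2 fold change 0.32, edgeR adjusted p = 3.3e-06). JDP2 changed by -1.67 (edgeR adjusted p = 3.82e-03) at no more than 15 counts in a library.

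Known ATF4 and CHOP targets outside the members, as placed in 3 lists, were mostly lower. Of 47 tested genes in them, 31 fell and 4 rose, which is 66.0% and 8.51%, beside 22.1% and 22.6% of all genes tested. Their median log2 fold change was -0.242. ATF3, downstream of ATF4, and ATF5 were counted with the related factors instead, and both rose (log2 fold changes 0.32 and 0.91). Of the amino acid enzymes and transporters, 11 of 16 fell (68.8%) and 1 rose (median -0.283). PHGDH, the entry enzyme of serine synthesis, fell from 6.69 ± 0.359 to 1.96 ± 0.252 CPM (SD, n = 4 each, log2 fold change -1.75, edgeR adjusted p = 6.4e-11). SLC6A9, a glycine transporter, changed by -0.76 (edgeR adjusted p = 6.3e-07) and SLC7A11, the cystine importer, by -0.52 (adjusted p = 2.2e-09). ALDH18A1, the first enzyme of proline synthesis from glutamate, was the gene that rose (0.17, edgeR adjusted p = 4.2e-04).

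Of the tRNA synthetases and the tRNA exportin XPOT, 10 of 13 fell (76.9%, beside 22.1% of all genes tested) and 1 rose (median -0.208). The fall of EPRS (EPRS1, -0.0878, edgeR adjusted p = 0.0197) was called in 6 of the 8 fits with a library left out, and its groups overlapped. SARS (SARS1, -0.42, edgeR adjusted p = 1.4e-10), CARS (CARS1, -0.41, adjusted p = 1.7e-10) and XPOT (-0.32, adjusted p = 4.2e-10) fell most. WARS (WARS1), the tryptophanyl-tRNA synthetase, which is also an interferon-induced gene, rose (0.19, edgeR adjusted p = 1.37e-03).

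Among the other ATF4 and CHOP targets, 10 of 18 fell (55.6%, beside 22.1% of all genes tested) and 2 rose (median -0.249). KLHL24 fell from 39.9 ± 0.983 to 19.1 ± 1.01 CPM (SD, n = 4 each, log2 fold change -1.07, edgeR adjusted p = 1.1e-15). GDF15, a secreted stress cytokine, changed by -0.90 (edgeR adjusted p = 4.42e-03), a call lost without control replicate 4 (-0.65, adjusted p = 0.0506). BBC3, which encodes the death-promoting protein PUMA, changed by -0.76 (edgeR adjusted p = 2.6e-07). Higher were GADD45A (0.37, edgeR adjusted p = 1.7e-05) and TXNIP (0.29, adjusted p = 1.7e-05). Over the lists, 8 genes were too low to test (CEBPA, NUPR1, ALDH1L2, CBS, SLC1A4, STC2, FGF21 and INHBE, with at most 7 counts in any library).

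Genes of the ATF6 and XBP1 arm, which raise folding capacity in the endoplasmic reticulum, were also mostly lower, with 13 of 18 called lower (72.2%) and 1 higher (5.56%), beside 22.1% and 22.6% of all genes tested (median -0.210). The calls of CRELD2 (-0.19, edgeR adjusted p = 0.0467), CALR and DNAJB11 held in 2, 5 and 7 of the 8 fits with a library left out. SEC24D, a coat protein of transport vesicles (-0.57, edgeR adjusted p = 2.9e-07), HSP90B1, a chaperone (-0.41, adjusted p = 2.8e-15), and MANF (-0.40, adjusted p = 3.9e-08) fell most. ERN1, which encodes the stress sensor IRE1, rose (0.36, edgeR adjusted p = 8.0e-04).

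**Figure D4:**
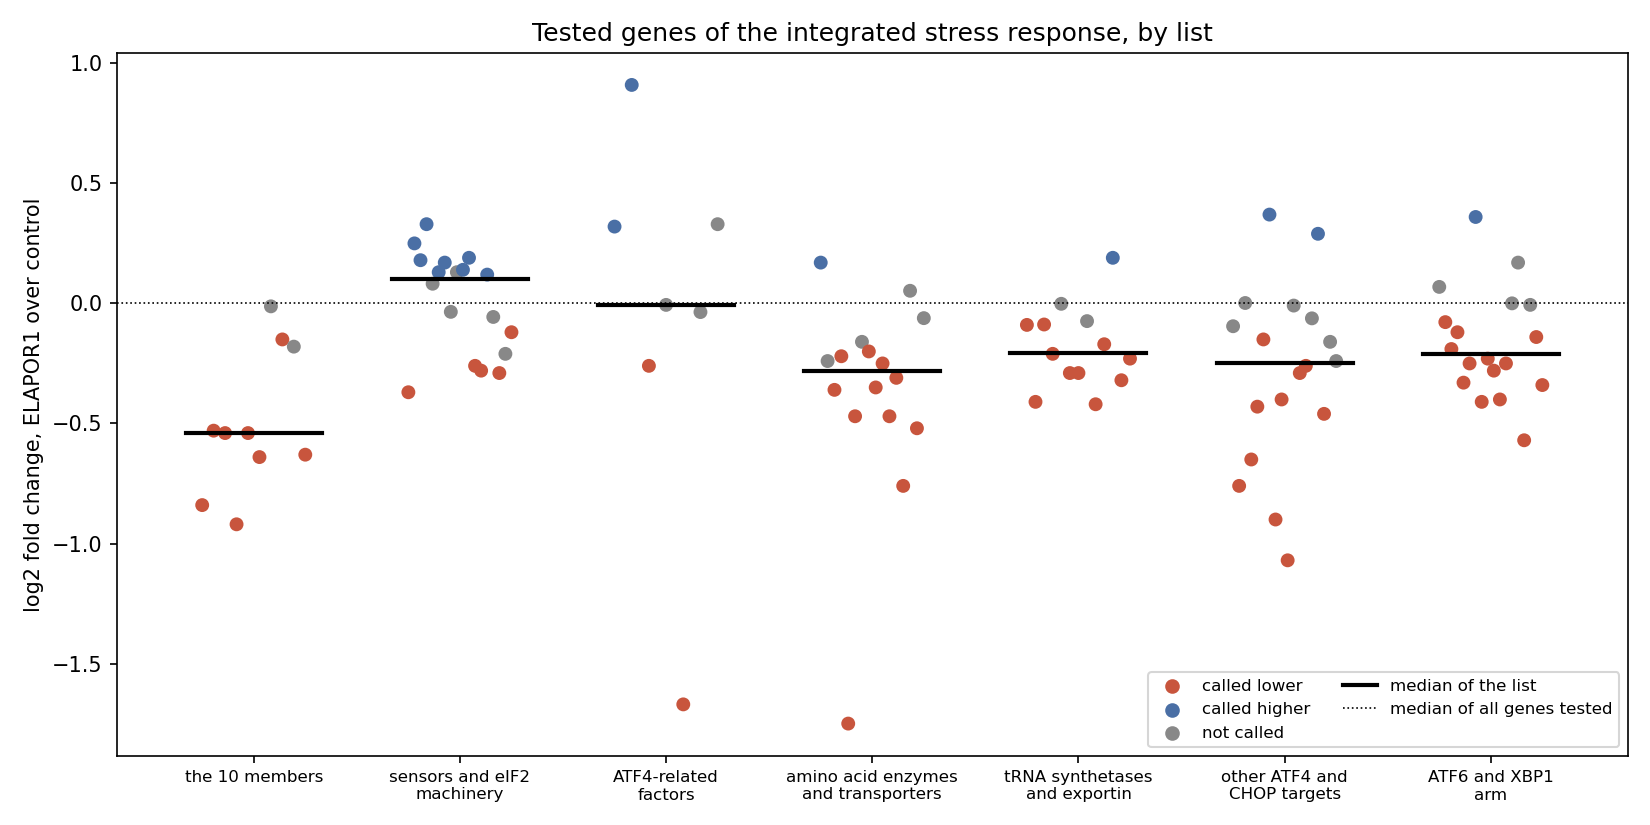
Log2 fold change of every tested gene of the members and the 6 lists (points, coloured by call), with the median of each list (bar) and of all genes tested (dotted line). The medians of the 3 target lists lie from -0.283 to -0.208 and that of the members at -0.54, while sensors and eIF2 machinery lie at 0.102.

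Of the 10703 tested genes whose mean reached 5 CPM, those whose profile over the 8 libraries was nearest to that of ATF4 were RPL26, UBALD2, RPL3, RPL17 and PHF1. Likeness was the root mean square difference of log2(CPM + 1) after taking away the mean of each gene, and it ran from 0.0262 for RPL26 to 0.0384 for PHF1. RPL26, RPL3 and RPL17 encode proteins of the large ribosomal subunit. The nearest member, TRIB3, was at 0.0693 and EIF2AK3, the farthest, at 0.279. For CHAC1 the nearest were DNAJC18 (0.0487), AP002990.1, MMAB, CCNB1IP1 and IDI1 (0.0945), and ASNS, at 0.0952, was the nearest member. In both searches the named genes were picked from far more genes than there are members. That they came nearer than any member therefore carries no weight. MMAB encodes a mitochondrial enzyme of cobalamin metabolism and IDI1 an enzyme of the mevalonate pathway.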

How the data were processed

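RNA from 8 Panc 10.05 libraries (4 control, 4 ELAPOR1) was measured by sequencing. The authors deposited 1 table of expected counts (estimated counts per gene and library) with no scaling between libraries, in which 15.0% of nonzero values were not whole (within 1e-06). Of the 80 values of the members, 68 were whole by the same tolerance. The submitters' processing notes name cutadapt, STAR, RSEM, DESeq2 and hg38, without versions or roles; annotation release and use of strand are not given in the sources used here. Expected counts were rounded and tested with edgeR 4.0.16 (R 4.3.3): filterByExpr, TMM, robust quasi-likelihood test, two-sided, with Benjamini-Hochberg adjustment over 13860 genes and calls at an adjusted p under 0.05. The SE is the absolute log2 fold change over the root of F. Library totals were 13765509 to 18128757, and the smallest count of a member was 59.

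Ratios to relatives were tested with the exact permutation test (scipy 1.17.1, pseudocount 1 CPM). Coordinates and exon lengths are from GENCODE 29 (58597 of 58870 gene IDs found, versions ignored), older symbols such as KIAA1324 were matched through the supplied gene names by ID, and promoters are from RefSeq (GRCh38.p14; all 10 members matched, in 16 windows). The members, lists and pairs were chosen with earlier results of these data known. Genes named are the members, ELAPOR1, the relatives, up to 3 called genes with the largest falls and rises of each list, the 5 nearest profiles of ATF4 and CHAC1, the cell type markers and member pseudogenes. MARS, EPRS, CRELD2, CALR, DNAJB11, EIF2B1, the overlapping genes and the genes too low to test were named after their values were seen. Alternatives were DESeq2 size factors, total count scaling, 2 other filters, DESeq2 1.42.0, limma-voom (limma 3.58.1), each library left out, the replicate number as a block, an adjusted p under 0.01, ELAPOR1 left out and a 1.5-fold test. The procedure was tested on simulated data. Plots used matplotlib 3.10.9.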

Additional observations from a re-analysis of the deposited data

Results flagged for a closer look

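In 4 of 48 groups of 4 libraries (totals, CPM of the members and of ELAPOR1, and ratios to relatives), a single library lay apart from the other 3 by a share of its group's range above Dixon's 95% critical value. Chance gives about 1 in 20, or 2.4 of 48. All 4 were ratios. The log2 ratio of TRIB3 to TRIB1 was 2.44 in control replicate 1 and 2.65 to 2.67 in the other control libraries. That of EIF2AK3 to EIF2AK4 was -2.53 in control replicate 2 and -2.24 to -2.22 in the others. In ELAPOR1 libraries, the log2 ratio of SESN2 to SESN3 was 0.735 in replicate 4 and 0.151 to 0.219 in the others, and that of PPP1R15A to PPP1R15B was 0.930 in replicate 2 and 0.743 to 0.774 in the others. No CPM of a member was set apart in this way.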

How the results depend on the processing

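The count of 8 members lower and none higher was the same under every alternative run except the test against a 1.5-fold change. That test called 1 member and 215 genes in all, and 2 other ATF4 targets lower and 0 higher. Under the remaining alternatives 29 to 32 other ATF4 targets were lower and 4 higher. With total count scaling, 7 ratios to relatives passed in place of 0 (adjusted p = 0.049), since EIF2AK3 against EIF2AK1 then also reached the smallest p. With a library left out, 3 against 4 cannot go below 0.0571, so ratios were then compared by value only. Signs turned only for genes that were not called. With total count scaling CEBPG had 0.0151 and EIF2AK3 0.00888. As each library was left out, CEBPG ranged from -0.0262 to 0.0277, EIF2AK3 from -0.067 to 0.0305, SESN1 from -0.0954 to 0.17, SESN3 from -0.0262 to 0.2 and TRIB1 from -0.11 to 0.0234. TRIB2 was called without ELAPOR1 replicate 4 (0.48, adjusted p = 0.0416). The cause of these changes was not tested. No scaling moved the median of all genes by more than 0.1. With the replicate number as a block 8 members were called lower and 5926 genes in all. Same-numbered libraries showed no shared deviation from their group means, with correlations of 0.0025, -0.0235, 0.0356 and -0.00918. Whether they were cultured or prepared together is not given, and these correlations cannot tell. The members with the fewest counts, CHAC1 and SESN2, have the widest intervals.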
